A study of Trichoderma reesei with 9 samples.

Results

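The vps21 deletion strain (Δvps21) of the filamentous fungus Trichoderma reesei was compared with its parent strain Rut-C30 by RNA sequencing of mycelium. The comparison takes every library that the labels give to these strains, 3 per strain and 6 of the 9 libraries deposited. Of the 10348 genes in the deposited table, 8825 had enough reads in these 6 libraries to be tested, and 330 had no read in any of them. All cultures had been kept for 96 h on Avicel, a microcrystalline cellulose that induces cellulase genes. The labels call Rut-C30 the wild type of the series. It is a mutagenised production strain that carries, among other lesions, a truncated cre1 carbon catabolite repressor gene, so its history is shared by both groups. The remaining 3 libraries came from a vps13 deletion strain (Δvps13) of the same parent and appear here only where Δvps21 is set beside it. The labels name no marker gene, no number of transformants and no complemented strain. They do not say whether the 3 libraries of a strain were separate cultures, so a p-value measures the spread between these libraries, which may be technical.

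Vps21 of budding yeast is a small GTPase of the Rab5 family. In its GTP-bound form it recruits tethers and lipid kinases to early endosomes, lets vesicles from the Golgi and the plasma membrane fuse there, and so feeds cargo into the multivesicular body and the vacuole. In filamentous fungi Rab5 also marks the early endosomes that run along microtubules on kinesin and dynein motors. T. reesei is known for the mass of cellulases it secretes through the endoplasmic reticulum, Golgi and hyphal tip, and the endosomal route is where secretory and vacuolar traffic meet.

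Each library held between 12399135 and 13248683 reads assigned to genes, and between 9587 and 9722 genes had at least 1 read. The 10 most abundant genes took 15.2 to 16.5% of the reads in the parent and 18.1 to 19.9% in Δvps21. Pearson correlations of log2 CPM, read counts scaled to library size, ran from 0.980 to 0.989 within a strain and from 0.876 to 0.897 between the strains, and the first principal component, with 83.8% of the variance, separated the strains. Values below are CPM scaled by the trimmed mean of M-values (TMM) when the strains are compared for 1 gene, in the order of replicates 1, 2 and 3. Levels of different genes are compared only in the deposited FPKM, which divide by gene length. A gene was called where the adjusted p of edgeR's quasi-likelihood test was under 0.05.

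The deleted gene was checked first. The table describes 2 genes as Rab5-like GTPases, and the labels do not say which of them is vps21. TRIREDRAFT_123015, at NW_006711164.1 from 346840 to 347958, had 107, 100.3 and 121 CPM in the parent and 0.151, 0.172 and 0.180 CPM in Δvps21. These Δvps21 values were 2 reads in each library, against 1365 to 1607 reads in a parent library, a ratio of 653 (95% interval 299.9 to 1781 from the counts). Intervals of this kind cover counting error only, because reads amplified by PCR are not independent molecules. The log2 fold change of TRIREDRAFT_123015 was -9.27 (SE 0.26, adjusted p = 7.14e-13 by edgeR). It is called the deleted gene below on these counts alone. The other Rab5-like gene, TRIREDRAFT_122593, had 141, 149 and 168 CPM in the parent and 196, 205 and 201 in Δvps21, a log2 fold change of 0.40 (SE 0.14, adjusted p = 0.0246 by edgeR). This rise was no longer called when parent replicate 1, parent replicate 2 or Δvps21 replicate 3 was left out, with adjusted p reaching 0.103, or when libraries were scaled by totals (0.234) or all 9 fitted together (0.171). In Δvps13 the mean FPKM of TRIREDRAFT_123015 was 122 and that of TRIREDRAFT_122593 was 224, against 105 and 163 in the parent.

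Genes beside the deleted one were also read, and they are named here after their values were seen. Of the 4 genes on either side, 3 rose, 2 fell and 3 were not called. Over all tested genes 28.5% rose and 26.9% fell, so these counts are not by themselves a result about the locus. TRIREDRAFT_123014, the next gene on the lower-coordinate side, had 67.7 to 75.3 CPM in the parent and 249 to 296 in Δvps21 (log2 1.87, SE 0.15). TRIREDRAFT_27085, the next on the other side, had 15.4 to 17.2 CPM in the parent and 28.5 to 47.4 in Δvps21 (log2 1.27, SE 0.19). TRIREDRAFT_109779, 3 genes further along, had 2 reads over the 3 parent libraries and 335 over the 3 Δvps21 libraries, a ratio of 192 (95% interval 52.8 to 1595). These 3 are described only as predicted proteins, and none of their libraries overlapped between strains. The phosphatidylinositol 4-kinase gene TRIREDRAFT_123013, beyond TRIREDRAFT_123014, fell from 70.7, 94.7 and 76.9 to 53.96, 49.7 and 49.3 CPM (log2 -0.66, SE 0.15), and TRIREDRAFT_65760 fell by 0.57 (SE 0.16) on the log2 scale.

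Of the 8825 genes tested, 4889 (55.4%) were called, 2512 (28.5%) higher and 2377 (26.9%) lower in Δvps21. The median log2 fold change over all tested genes was -0.00. When libraries were scaled by their totals alone, that median fell to -0.20 and the split became 1807 higher and 2994 lower, so the direction of a small change depends on the scaling. Among the called genes, 2380 of the higher and 2289 of the lower had no overlap between the 3 libraries of each strain. A change of at least 2-fold was seen in 1249 higher and 1234 lower genes, and one of at least 32-fold in 30 higher and 16 lower genes. The median level of the higher genes went from 13.1 to 28.2 FPKM and that of the lower genes from 16.6 to 7.92 FPKM. Of the tested genes, 7266 were described only as predicted or hypothetical proteins, and 2034 of those carried a protein domain name. Since 55.4% of all genes were called, the shares of a gene list called higher and lower, given in brackets after the counts below, are to be read against these 28.5% and 26.9% and are not by themselves a result about the list.

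The largest rises were in genes that were nearly silent in the parent. The multicopper oxidase gene TRIREDRAFT_124079, of a family that oxidises phenols and metal ions, had 0.731, 0.294 and 0.238 CPM in the parent and 205, 211 and 202 in Δvps21. Its log2 fold change was 8.86 (SE 0.26) and reached 9.52 without parent replicate 1. A gene of no described function, TRIREDRAFT_112258, went from 7 reads over the 3 parent libraries to 4576 over the 3 Δvps21 libraries, a ratio of 751 (95% interval 364 to 1868). Of those 7 reads 5 were in parent replicate 1, and its log2 fold change of 9.48 reached 10.52 without it. Another such gene, TRIREDRAFT_119552, had 4.98, 2.13 and 3.33 CPM in the parent and 1419, 1564 and 1265 in Δvps21 (log2 8.65, SE 0.29). Both genes stood far above the parent in every Δvps21 library.

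Surface proteins and transporters were among the other large rises. TRIREDRAFT_106538, a class II hydrophobin, one of the small amphipathic proteins that coat hyphae and spores, rose from 7.37, 6.76 and 8.25 CPM to 1097, 1293 and 1092 CPM (log2 7.28, SE 0.20). The gene ooc1 rose from 5.78, 4.85 and 4.84 CPM to 785, 969.6 and 778 CPM (log2 7.35, SE 0.21). TRIREDRAFT_106556, described as a galactose permease, had 1.46, 1.25 and 2.62 CPM in the parent and 219, 249 and 310.0 in Δvps21 (log2 7.20, SE 0.26). In all 3 genes the lowest Δvps21 library stood far above the highest parent library. The amino acid transporter gene TRIREDRAFT_121486 rose from 1.33, 2.28 and 1.43 to 152, 182 and 245 CPM (log2 6.84, SE 0.26). A proteinase inhibitor gene, TRIREDRAFT_72379, rose from 12.3, 11.2 and 11.4 to 696, 817 and 742 CPM (log2 6.01, SE 0.18).

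Several other genes fell far, and those given here are not a ranking. TRIREDRAFT_59065 and TRIREDRAFT_106626, which have no described function and are named after their values were seen, fell about as far. TRIREDRAFT_109235, with a family 18 carbohydrate-binding module that binds chitin, had 10.3 to 12.8 CPM in the parent and 1 read in each Δvps21 library, 476 against 3 reads in all, a ratio of 138 (95% interval 46.997 to 672). TRIREDRAFT_123718, an amino acid transporter of the same family as TRIREDRAFT_121486, had 328 reads over the parent libraries and 2 over the Δvps21 libraries, a ratio of 143 (95% interval 39.2 to 1184). So 2 transporters of 1 family stood at opposite ends of the response. A protein kinase gene, TRIREDRAFT_105449, fell from 65.2, 73.3 and 68.3 CPM to 1.89, 1.72 and 2.34 (log2 -5.12, SE 0.20). The alcohol oxidase gene TRIREDRAFT_123978, of a family that makes hydrogen peroxide from alcohols, fell from 138, 157 and 181 CPM to 13.3, 13.7 and 9.29 (log2 -3.71, SE 0.19). TRIREDRAFT_123946, described as a cellulase signal transduction protein, fell from 91.5, 86.0 and 99.4 CPM to 9.69, 11.3 and 10.6 (log2 -3.13, SE 0.16).

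**Figure D1:**
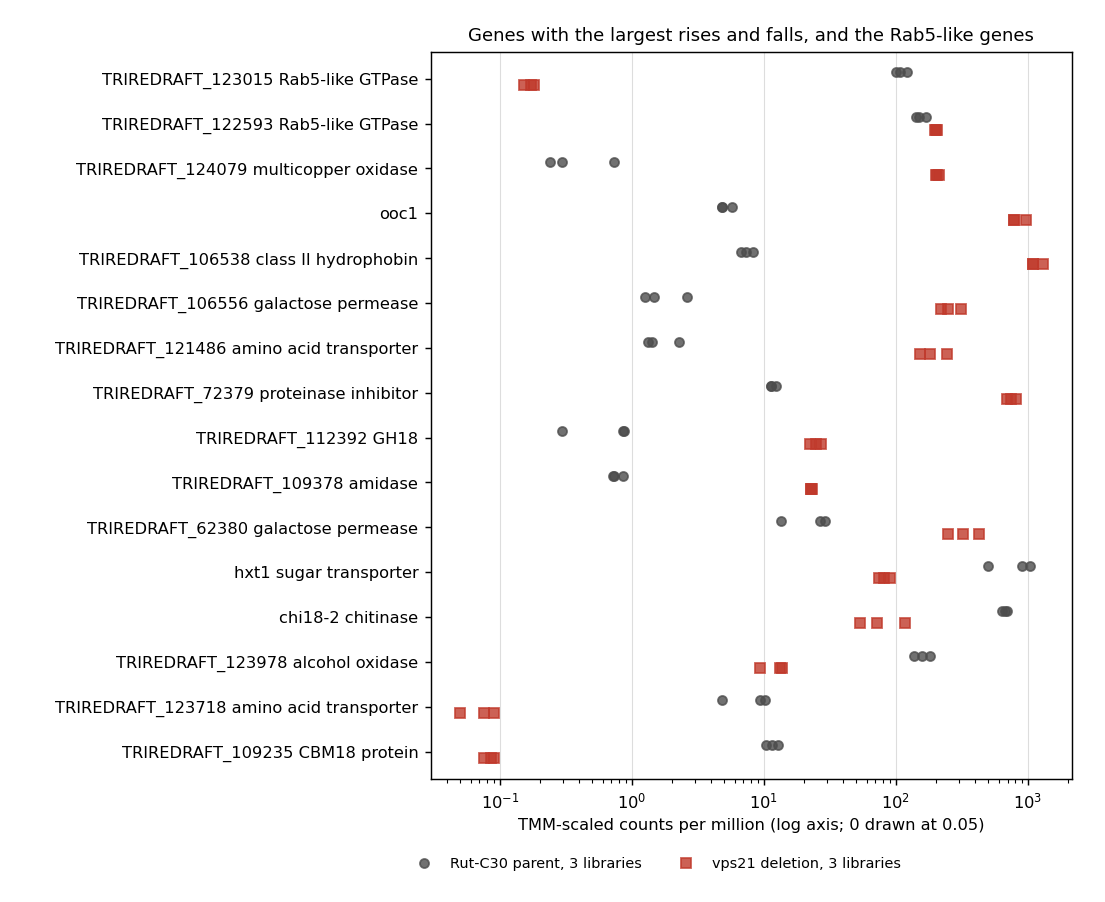
Each point is 1 library and shows TMM-scaled CPM on a log axis, with circles for the parent and squares for the vps21 deletion. Drawn are the 2 Rab5-like genes and a choice of genes with large rises or falls, which is not a ranking. Some larger changes given in the text, such as those of TRIREDRAFT_112258 and TRIREDRAFT_105449, are not drawn. In each of the 16 genes the 3 libraries of a strain sit apart from those of the other strain; a library with no read is drawn at 0.05.

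Some genes had reads in 1 strain only, and these were chosen by that pattern. TRIREDRAFT_105156 had 284 reads over the parent libraries and none in Δvps21, so it was at least 82.4-fold lower when the Δvps21 group is set at a floor of 3 reads over its 3 libraries. TRIREDRAFT_64951, a short-chain dehydrogenase by its domain, had 138 reads in the parent and none in Δvps21, at least 40.1-fold lower by the same floor. In the other direction TRIREDRAFT_122975, with a collagen-like domain, had no read in the parent and 67 in Δvps21, at least 25.6-fold higher. In all, 5 called genes had no read in Δvps21 and 3 had none in the parent.

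Cellulase transcripts, which include some of the most abundant in these mycelia, were mostly higher in Δvps21. Among the 15 cellulases and related cellulose-active proteins tested, 12 rose (80% against 28.5% of all genes), 2 fell and 1 was not called, with a median log2 fold change of 1.82 against -0.00 over all genes. Their summed mean level went from 16604 to 74020 FPKM. All 12 rises were at least 2-fold. Under scaling by totals the list had 12 higher and 3 lower.

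The main exoglucanase gene cel7a, whose product cuts cellobiose from the reducing ends of cellulose chains, had 9835, 10259.6 and 12464 CPM in the parent and 42389, 51773 and 48566 in Δvps21. Its log2 fold change was 2.13 (SE 0.20, adjusted p = 2.74e-07 by edgeR). TRIREDRAFT_72567, the glycoside hydrolase family 6 gene, a family whose exoglucanases act from the other chain end, had 6376, 5054 and 6545 CPM in the parent and 34398, 43773 and 44785 in Δvps21 (log2 2.77, SE 0.21). Every Δvps21 library stood well above the highest parent library for both genes. Per length they reached 23631 ± 2349 and 22345 ± 3169 FPKM (SD, n = 3) in Δvps21.

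Endoglucanases, which cut within cellulose chains, followed. The gene cel7b rose from 455, 326 and 436 to 1895, 2541 and 2064 CPM (log2 2.42, SE 0.19). The family 45 gene TRIREDRAFT_49976 rose from 534, 382 and 531 to 2482, 2686 and 2415 CPM (log2 2.39, SE 0.18). The gene cel61b, of the lytic polysaccharide monooxygenases that open crystalline cellulose by oxidation, rose from 2195, 1619 and 2055 to 5294, 9023 and 6460.1 CPM (log2 1.82, SE 0.21). The largest fold change in the list was that of cip2, a cellulose-binding protein gene, with 269, 171 and 229.6 CPM in the parent and 1733, 1424 and 1501 in Δvps21 (log2 2.80, SE 0.19). Further members are named after their values were seen: cel61a (log2 2.23), cel5a (1.59), cip1 (1.53) and cel12a (1.38) rose. The 2 members that fell were cel5b, with 90.3 to 114 CPM in the parent and 69.8 to 81.5 in Δvps21 (log2 -0.51, SE 0.15), and the expansin-like TRIREDRAFT_23115 (log2 -0.47, SE 0.17). Neither fall was called when all 9 libraries shared 1 estimate of the spread. The family 12 gene TRIREDRAFT_77284 had a log2 fold change of -0.19 (SE 0.17).

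Beta-glucosidases split cellobiose to glucose. Of 14 tested genes of families GH1 and GH3, 7 rose (50%) and 2 fell (14.3%), 5 and 3 when scaled by totals, with a median log2 fold change of 0.40. The gene of the main extracellular enzyme, cel3a, had 125, 85.8 and 116 CPM in the parent and 400.5, 600.2 and 465 in Δvps21 (log2 2.17, SE 0.19). The intracellular enzyme's gene cel1a, the most abundant of the list at 1632 FPKM in the parent, had 2926 to 3796 CPM in the parent and 3745 to 4209.9 in Δvps21 (log2 0.23, SE 0.17) and was not called. The libraries of cel1a overlapped between strains, those of cel3a did not. TRIREDRAFT_47268 rose by 2.69 (SE 0.15) and cel3b by 1.51 (SE 0.14), while TRIREDRAFT_76227 fell by 1.42 (SE 0.16), all on the log2 scale.

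The transcription factors known to govern these enzymes had smaller fold changes than cel7a. The gene xyr1, for the activator without which cellulase genes stay silent, had 921, 1032 and 1039 CPM in the parent and 1826, 2138 and 1887 in Δvps21 (log2 0.97, SE 0.16). The repressor gene cre1 had 877, 726 and 854 CPM in the parent and 1543, 1734 and 1841 in Δvps21 (log2 1.06, SE 0.16). The transcripts of xyr1 and cre1 thus rose by nearly the same factor. Since cre1 is truncated in Rut-C30, its transcript level does not stand for that of a complete repressor. The gene ace1, for another repressor, went from 363, 496 and 461 to 677, 598 and 771 CPM (log2 0.63, SE 0.17). With all 9 libraries in 1 fit, xyr1 and ace1 were no longer called (adjusted p = 0.0628 and 0.154).

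Enzymes for hemicellulose and pectin split in both directions. Of 39 tested, 19 rose (48.7%) and 15 fell (38.5%), with a median log2 fold change of 0.47, and their summed level went from 3389 to 8175 FPKM. The xylanase gene TRIREDRAFT_123818, of family 11, had 608, 659 and 779 CPM in the parent and 1399, 1758 and 1545 in Δvps21 (log2 1.20, SE 0.17). The xyloglucanase family 74 gene TRIREDRAFT_49081 rose from 1968, 2071 and 2662 to 4108, 5122 and 3616 CPM (log2 0.94, SE 0.19), a call lost with all 9 libraries in 1 fit (adjusted p = 0.125). TRIREDRAFT_69276, of family 30, rose from 189.8, 125 and 173 to 852, 854 and 919 CPM (log2 2.43, SE 0.18). These abundant members were higher in every Δvps21 library. TRIREDRAFT_103049, of the polygalacturonase family 28, rose by 3.55 (SE 0.18) and the arabinofuranosidase family 54 gene TRIREDRAFT_55319 by 2.62 (SE 0.19). The esterase family 5 gene TRIREDRAFT_54219 rose by 4.17 (SE 0.33), and by 4.87 without parent replicate 1. Among those that fell was TRIREDRAFT_76852, of family 2, with 323, 371 and 363 CPM in the parent and 53.9, 76.6 and 57.4 in Δvps21 (log2 -2.49, SE 0.17). The esterase family 3 gene TRIREDRAFT_70021 fell from 8.24, 13.2 and 9.20 to 1.36, 1.29 and 0.902 CPM (log2 -3.09, SE 0.30). The family 10 gene TRIREDRAFT_120229 (log2 1.53) overlaps a gene on the opposite strand, and since the labels name no step that marks strand, its reads cannot be assigned with certainty.

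**Figure D2:**
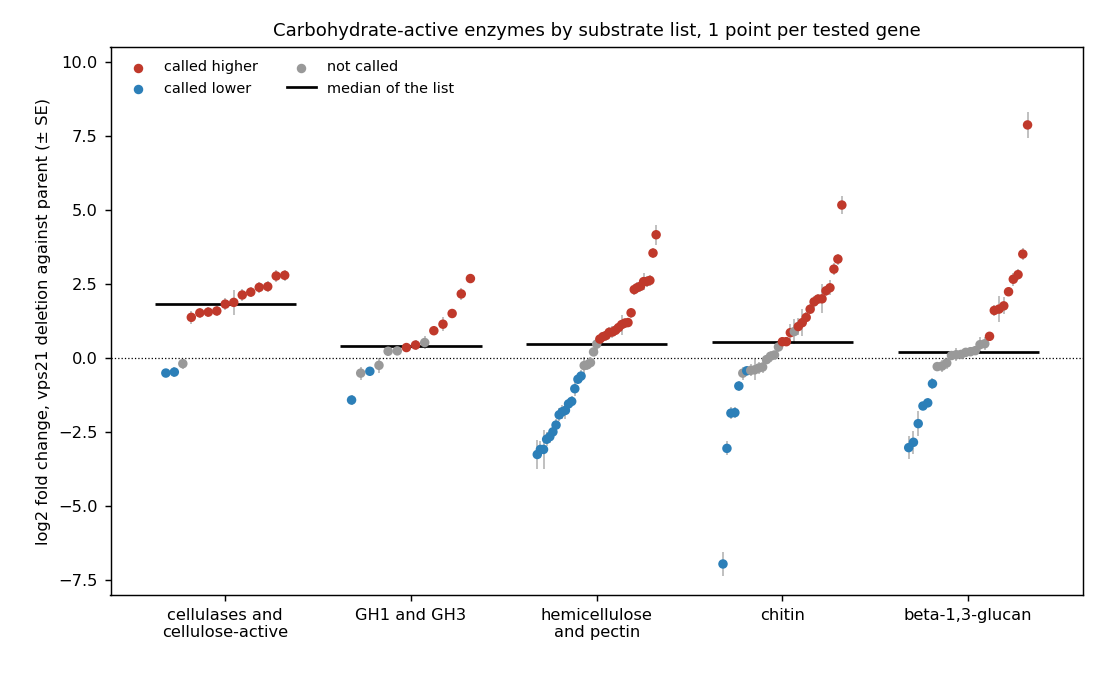
The vertical axis gives the log2 fold change of the vps21 deletion against the parent with its standard error, 1 point per tested gene, for 5 lists of carbohydrate-active enzymes, coloured by whether the gene was called higher, lower or not at all. The cellulase list has 12 points above 1 and a median of 1.82, while the hemicellulose, chitin and beta-1,3-glucan lists reach well to both sides of 0.

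Enzymes acting on the fungus's own wall polymers also moved. Of 31 tested chitin enzymes and chitin-binding proteins, 15 rose (48.4%) and 6 fell (19.4%), 12 and 8 when scaled by totals, with a median log2 fold change of 0.55. The chitinase gene chi18-5 had 39.4, 33.3 and 46.5 CPM in the parent and 466, 323 and 423 in Δvps21 (log2 3.35, SE 0.19). In the other direction the chitinase gene chi18-2 had 639, 674 and 693 CPM in the parent and 71.4, 118 and 53.01 in Δvps21 (log2 -3.05, SE 0.24). So chi18-2, the more abundant of the pair in the parent, became the less abundant, at 70.97 FPKM against 210.2 FPKM for chi18-5. Further family 18 genes that rose were TRIREDRAFT_112392 (log2 5.17, SE 0.29) and chi18-12 (log2 3.01, SE 0.21). TRIREDRAFT_79671, of esterase family 9, which deacetylates N-acetylglucosamine phosphate released from chitin, rose from 626, 716 and 763 to 2521, 2645 and 3230.2 CPM (log2 1.995, SE 0.17).

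Of 26 tested beta-1,3-glucan enzymes, 9 rose (34.6%) and 6 fell (23.1%), with a median log2 fold change of 0.21. The most abundant, the family 17 gene TRIREDRAFT_39942, had 3851 to 5777 CPM in the parent and 3461 to 4575 in Δvps21 (log2 -0.27, SE 0.19) and was not called, and neither were the family 72 transglycosylase genes TRIREDRAFT_123538 and TRIREDRAFT_22914 (log2 0.09 and 0.22). The rises came from genes that were low in the parent. TRIREDRAFT_55886, of family 16, had 2 reads over the parent libraries and 494 over the Δvps21 libraries, a ratio of 284 (95% interval 78.1 to 2349). TRIREDRAFT_79602, of the endoglucanase family 81, rose from 4.92, 6.17 and 4.28 to 65.2, 51.1 and 59.8 CPM (log2 3.51, SE 0.19), and TRIREDRAFT_121746, of family 55, rose by 2.24 (SE 0.15).

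Of 73 glycosyltransferases, 19 rose (26.03%) and 18 fell (24.7%), and under scaling by totals 16 rose and 25 fell. The most abundant, TRIREDRAFT_121491 of family 4, fell from 9947, 10563 and 11233 to 4672, 4835 and 5008 CPM (log2 -1.13, SE 0.17). The gene gph1, labelled a glycosyl transferase, fell from 316, 428 and 451 to 94.4, 113 and 96.6 CPM (log2 -1.97, SE 0.17). TRIREDRAFT_75295, of family 20, which holds the trehalose phosphate synthases, fell by 0.80 (SE 0.16), a call lost with all 9 libraries in 1 fit (adjusted p = 0.0682). None of these 3 genes had overlapping libraries.

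Sugar uptake genes changed in both directions. Of 58 tested sugar transporters, 26 rose (44.8%) and 15 fell (25.9%), with a median log2 fold change of 0.23; under scaling by totals 21 rose and 22 fell. The hexose transporter gene hxt1 had 502, 905 and 1030.4 CPM in the parent and 80.97, 74.1 and 90.9 in Δvps21 (log2 -3.31, SE 0.23). In contrast TRIREDRAFT_68812 rose from 258, 319 and 328 to 4482, 3284 and 3948 CPM (log2 3.69, SE 0.19). Its level went from 153 to 1978 FPKM, the second highest of the list in Δvps21. The most abundant transporter, TRIREDRAFT_3405, had 10838 to 12145 CPM in the parent and 11832 to 13373 in Δvps21 (log2 0.15, SE 0.17), with overlapping libraries. TRIREDRAFT_62380, described as a galactose permease, rose by 3.85 (SE 0.27) and TRIREDRAFT_121482 by 3.23 (SE 0.18).

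Several genes for the breakdown of pentoses and galactose fell. Of 9 tested, 5 fell (55.6%) and 2 rose (22.2%), 5 and 1 when scaled by totals, with a median log2 fold change of -0.46. The gene lxr1, for L-xylulose reductase of the L-arabinose pathway, had 1022, 1089 and 1067 CPM in the parent and 179, 199 and 208 in Δvps21 (log2 -2.44, SE 0.15). The galactokinase gene gal1 fell from 70.4, 72.2 and 68.4 to 27.3, 19.9 and 19.1 CPM (log2 -1.67, SE 0.17), and the xylitol dehydrogenase gene xdh1 from 71.1, 48.1 and 40.0 to 20.7, 26.97 and 20.1 CPM (log2 -1.23, SE 0.21). The first enzyme of xylose breakdown, encoded by xyl1, had 453 to 587 CPM in the parent and 342 to 561 in Δvps21 (log2 -0.14, SE 0.18) and was not called. The galacturonate reductase gene gar1 rose by 1.19 (SE 0.19), a call lost with all 9 libraries in 1 fit (adjusted p = 0.0717).

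In central carbon metabolism, 21 of 47 tested genes rose (44.7%) and 16 fell (34.0%), 16 and 17 when scaled by totals. The genes that fell included steps of glycolysis and of ethanol fermentation. The phosphoglycerate kinase gene pgk1 had 4051, 6092 and 6637 CPM in the parent and 1443, 1675 and 1426 in Δvps21 (log2 -1.88, SE 0.20). The glucose-6-phosphate isomerase gene TRIREDRAFT_5776 fell from 381, 458 and 473 to 132, 139 and 113 CPM (log2 -1.77, SE 0.16). TRIREDRAFT_121534, for pyruvate decarboxylase, the entry to ethanol fermentation and 1 of the most abundant transcripts, fell from 21433, 27328 and 28704 to 16418, 16139 and 17496 CPM (log2 -0.63, SE 0.19), a call lost with all 9 libraries in 1 fit (adjusted p = 0.281). Conversely, the fructose-bisphosphatase gene TRIREDRAFT_65508, for a step specific to gluconeogenesis, rose from 71.9, 73.0 and 81.6 to 422, 348 and 544 CPM (log2 2.54, SE 0.18). A hexokinase gene, TRIREDRAFT_79677, rose from 311, 309.7 and 304 to 1377, 1333 and 1518 CPM (log2 2.19, SE 0.15).

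Genes of the compartment in which Vps21 acts in yeast changed about as often as genes in general. Of 46 tested genes for endosomes and vacuolar sorting, 15 rose (32.6%) and 12 fell (26.1%), 9 and 13 when scaled by totals, with a median log2 fold change of 0.14. TRIREDRAFT_21907, with a FYVE domain that binds the endosomal lipid phosphatidylinositol 3-phosphate, rose from 8.44, 8.82 and 10.3 to 45.6, 31.4 and 44.99 CPM (log2 2.15, SE 0.19). The sorting nexin gene TRIREDRAFT_106014, with a PX domain that binds the same lipid, rose from 81.8, 86.0 and 108 to 198, 233 and 269 CPM (log2 1.35, SE 0.16). TRIREDRAFT_81214, of the ESCRT-III family that pinches vesicles into the multivesicular body, rose from 165, 121 and 144 to 285, 294 and 362 CPM (log2 1.13, SE 0.16). The libraries of these 3 genes did not overlap between strains. Among the 12 that fell, the PX-domain gene TRIREDRAFT_108953, with the highest FPKM of the list in the parent, had 162, 186 and 223 CPM in the parent and 109, 169.9 and 125 in Δvps21 (log2 -0.50, SE 0.18), with overlapping libraries and a call lost in 4 of 6 fits that left out 1 library.

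Of 48 tested small GTPases and their regulators, 18 rose (37.5%) and 11 fell (22.9%); under scaling by totals 9 rose and 12 fell, and without parent replicate 2 the number that rose was 11. Beside the Rab5-like pair, a Rab family gene, TRIREDRAFT_63053, rose from 16.8, 11.2 and 14.6 to 69.2, 82.2 and 88.8 CPM (log2 2.49, SE 0.18). TRIREDRAFT_21294, of the Rho2 subfamily, which in fission yeast governs cell wall synthesis, rose from 137, 126 and 135 to 301, 274 and 367 CPM (log2 1.24, SE 0.15). The gene sar1, whose product starts the coats of vesicles that leave the endoplasmic reticulum, rose from 407, 327 and 393 to 478, 599 and 615 CPM (log2 0.59, SE 0.16), a call lost without parent replicate 2 and with all 9 libraries in 1 fit.

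SNAREs, coats and tethers, the machinery of vesicle budding and fusion, gave 16 rises (20.5%) and 15 falls (19.2%) among 78 tested genes, and 10 rises and 21 falls under scaling by totals. The secretory-vesicle SNARE gene snc1 had 242, 209 and 300.0 CPM in the parent and 441, 669 and 686 in Δvps21 (log2 1.26, SE 0.19). Its plasma membrane partner's gene sso1 had 158 to 165 CPM in the parent and 184 to 187 in Δvps21 (log2 0.20, SE 0.13) and was not called. The syntaxin gene TRIREDRAFT_3340 (log2 1.40, SE 0.19) and the v-SNARE genes TRIREDRAFT_45476 (1.39, SE 0.17) and TRIREDRAFT_61465 (1.17, SE 0.15) rose. TRIREDRAFT_64332, of a TRAPP tether family, fell by 0.87 (SE 0.14).

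Genes for protein folding in the secretory pathway rose or fell member by member. Of 48 tested genes for entry, folding and glycosylation in the endoplasmic reticulum, 17 rose (35.4%) and 8 fell (16.7%), 15 and 11 when scaled by totals, with a median log2 fold change of 0.27. The gene bip1, for the HSP70 chaperone of the endoplasmic reticulum, had 577, 572 and 624 CPM in the parent and 1791, 2445 and 2534 in Δvps21 (log2 1.93, SE 0.17). The disulfide isomerase gene pdi1 rose from 292, 372 and 365 to 942, 1243 and 1039.8 CPM (log2 1.65, SE 0.17). The libraries of bip1 and pdi1 did not overlap between strains. Not all of the list followed: TRIREDRAFT_75036, of family 63, which trims glucose from new N-glycans, fell from 91.4, 108 and 89.4 to 30.1, 36.7 and 24.3 CPM (log2 -1.66, SE 0.17). A signal recognition particle receptor gene, TRIREDRAFT_5350, fell from 117, 134 and 167 to 44.1, 44.6 and 46.2 CPM (log2 -1.63, SE 0.16).

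Among heat shock proteins and cochaperones the rises outnumbered the falls. Of 34 tested, 21 rose (61.8%), 3 fell (8.82%) and 10 were not called, with a median log2 fold change of 0.71, and their summed level went from 3524 to 13065 FPKM. With all 9 libraries in 1 fit 16 rose. TRIREDRAFT_55362, with an HSP70 domain, had 2251, 2344 and 3042 CPM in the parent and 9662, 15834 and 20727 in Δvps21 (log2 2.60, SE 0.25). This gene alone reached 7183 ± 2618 FPKM (SD, n = 3) in Δvps21, and its Δvps21 libraries were more than 2-fold apart. The HSP40-type cochaperone genes TRIREDRAFT_22064 and TRIREDRAFT_21937 rose by 1.501 (SE 0.23) and 1.94 (SE 0.19). An HSP70-domain gene, TRIREDRAFT_121839, fell instead, from 68.2, 88.5 and 63.2 to 5.83, 5.41 and 5.32 CPM (log2 -3.73, SE 0.19).

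Ubiquitin marks proteins for the proteasome and membrane cargo for the vacuole. Of 71 tested proteasome and ubiquitin genes, 20 rose (28.2%) and 7 fell (9.86%), 15 and 14 when scaled by totals, with a median log2 fold change of 0.13. The polyubiquitin gene ubi4 had 885, 678 and 872 CPM in the parent and 2876, 3098 and 4154 in Δvps21 (log2 2.06, SE 0.19). The conjugating-enzyme genes TRIREDRAFT_60000 (log2 1.87, SE 0.18) and TRIREDRAFT_65553 (1.24, SE 0.15) and the HECT ligase gene TRIREDRAFT_81465 (1.43, SE 0.16) rose too. TRIREDRAFT_121843, with the IBR domain of another ligase class, fell from 151, 142 and 109.8 to 12.6, 16.5 and 14.4 CPM (log2 -3.21, SE 0.18).

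Cytosolic ribosomal protein genes fell as a group by a small factor. Of 51 tested, 44 fell and none rose (86.3% lower against 26.9% of all genes), with a median log2 fold change of -0.61, and their summed level went from 40966 to 24535 FPKM. Only 5 of the 51 fell by 2-fold or more. Scaling by totals, which lowers every value, gave 50 falls, and leaving out 1 library at a time gave 38 to 43. With all 9 libraries in 1 fit the count was 26. The gene rps30 had 813, 609.7 and 562 CPM in the parent and 375, 479.9 and 317 in Δvps21 (log2 -0.76, SE 0.19; adjusted p = 0.0557 with all 9 libraries in 1 fit). The gene rps26 fell from 579, 797 and 742 to 347, 384 and 335 CPM (log2 -0.99, SE 0.16), and rpl38 from 571, 463 and 442 to 189, 239.9 and 200.4 CPM (log2 -1.23, SE 0.16). Other genes of the translation machinery did not follow in that way. Of 39 tested factors and tRNA synthetases, 12 rose (30.8%) and 7 fell (17.9%), 6 and 11 when scaled by totals, with 7 rises without parent replicate 3. The elongation factor gene tef1a had 4038 to 4534 CPM in the parent and 3757 to 4526 in Δvps21 (log2 -0.06, SE 0.16).

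**Figure D3:**
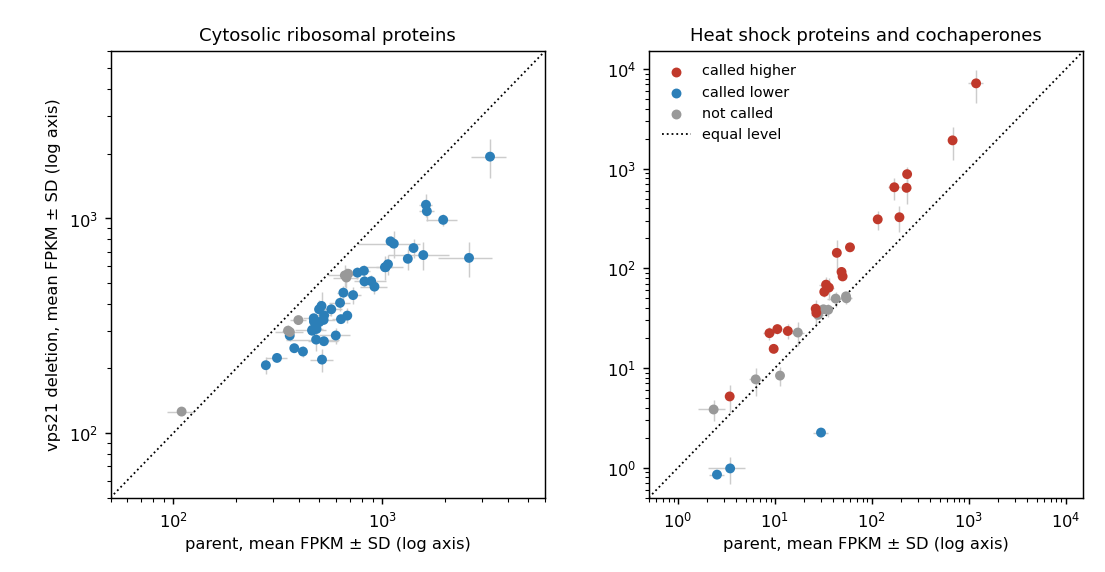
Each point is 1 gene, with its mean deposited FPKM and SD over 3 libraries in the parent on the horizontal and in the vps21 deletion on the vertical axis, both on log scales; the dotted line marks equal levels. The 44 ribosomal protein genes called lower lie in a band just under the line, while 21 heat shock genes are called higher and 3 called lower.

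Mitochondrial genes rose more often than they fell. Of 44 tested genes for mitochondrial carriers and respiration, 23 rose (52.3%) and 2 fell (4.55%), 18 and 5 when scaled by totals and 15 rises with all 9 libraries in 1 fit, with a median log2 fold change of 0.42. All 23 that rose were carriers, the inner-membrane proteins that exchange metabolites between mitochondrion and cytosol, and 1 of the 34 tested carriers fell. The adenine nucleotide translocator gene TRIREDRAFT_121834, which exports ATP, had 2094, 2005 and 2211 CPM in the parent and 3986, 3744 and 5169 in Δvps21 (log2 1.03, SE 0.17). TRIREDRAFT_80775 rose from 48.9, 50.1 and 50.98 to 169.7, 172 and 189.8 CPM (log2 1.83, SE 0.14). A respiratory chain member, the cytochrome oxidase gene TRIREDRAFT_80288, had 709 to 947 CPM in the parent and 748 to 843 in Δvps21 (log2 -0.03, SE 0.16).

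Amino acid metabolism moved on both its sides. Of 59 tested synthesis genes, 29 rose (49.2%) and 13 fell (22.0%), 22 and 14 when scaled by totals, with a median log2 fold change of 0.35. The homocitrate synthase gene TRIREDRAFT_123471, first in lysine synthesis, rose from 146, 161 and 148 to 420.1, 381 and 521 CPM (log2 1.54, SE 0.16). The acetolactate synthase gene TRIREDRAFT_74123, early in branched-chain synthesis, rose from 241, 258 and 219 to 655, 458 and 597 CPM (log2 1.25, SE 0.16). On the other hand, the argininosuccinate synthetase gene TRIREDRAFT_82619 fell from 14.5, 15.1 and 16.2 to 3.33, 3.95 and 3.34 CPM (log2 -2.10, SE 0.21). Of 55 tested genes for amino acid and nitrogen catabolism, 22 rose (40%) and 17 fell (30.9%), 18 and 18 when scaled by totals. The gene tr42600, for the hydroxyphenylpyruvate dioxygenase of tyrosine breakdown, rose from 56.8, 32.04 and 33.1 to 587, 298 and 638 CPM (log2 3.64, SE 0.29). A branched-chain aminotransferase gene, TRIREDRAFT_123820, rose from 63.3, 48.1 and 52.0 to 465, 269 and 508 CPM (log2 2.93, SE 0.22), and a proline dehydrogenase gene, TRIREDRAFT_54564, from 18.6, 15.1 and 14.03 to 104, 85.3 and 142 CPM (log2 2.79, SE 0.20). Δvps21 replicate 2 was the lowest of its strain for all 3 of these genes.

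Nitrogen uptake gave 15 rises (27.8%) and 12 falls (22.2%) among 54 tested genes, 12 and 18 under scaling by totals; the number of falls was 7 without parent replicate 2, parent replicate 3 or Δvps21 replicate 3. The amino acid permease gene inda1, the most abundant in Δvps21 at 1419 FPKM, rose from 885, 946 and 1009 to 3227, 2791 and 3783 CPM (log2 1.79, SE 0.17). An oligopeptide transporter gene, TRIREDRAFT_59364, fell from 36.01, 50.6 and 52.2 to 4.99, 5.07 and 7.39 CPM (log2 -2.99, SE 0.21). Of 78 tested proteases and peptidases, 25 rose (32.1%) and 27 fell (34.6%), 18 and 32 when scaled by totals. Among those that rose were the aspartic protease genes TRIREDRAFT_81004, from 1.46, 0.735 and 2.06 to 46.0, 46.6 and 46.2 CPM (log2 5.03, SE 0.25), and TRIREDRAFT_122076 (log2 2.87, SE 0.15). TRIREDRAFT_47127, of the M18 aminopeptidases, a family with vacuolar members in yeast, rose from 23.3, 25.2 and 27.7 to 149, 172 and 160.3 CPM (log2 2.66, SE 0.15).

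Sterol synthesis genes were among the lipid genes that fell. Of 66 tested lipid and sterol genes, 17 rose (25.8%) and 22 fell (33.3%), 12 and 25 when scaled by totals. TRIREDRAFT_121230, for squalene monooxygenase, had 6416, 8550.2 and 8625 CPM in the parent and 2064, 2845 and 2138 in Δvps21 (log2 -1.74, SE 0.19). The lanosterol 14-alpha demethylase gene TRIREDRAFT_75468, the target of azole fungicides, fell from 605, 687 and 732 to 162, 207 and 166 CPM (log2 -1.92, SE 0.16), and the sterol desaturase gene TRIREDRAFT_122166 fell by 0.87 (SE 0.14). A phospholipase D gene, TRIREDRAFT_78611, which releases phosphatidic acid, fell from 700.5, 823 and 779 to 172, 245 and 214 CPM (log2 -1.87, SE 0.17). A lysophospholipase gene, TRIREDRAFT_70527, rose from 1.66, 1.25 and 1.35 to 15.4, 11.4 and 11.8 CPM (log2 3.17, SE 0.26).

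Secondary metabolism and cytochrome P450 genes fell more often than they rose. Of 72 tested, 32 fell (44.4% against 26.9% of all genes) and 10 rose (13.9%), with a median log2 fold change of -0.55. The P450 gene TRIREDRAFT_103147 had 144, 147 and 131 CPM in the parent and 18.1, 18.7 and 17.5 in Δvps21 (log2 -2.96, SE 0.15). The members that rose include the largest changes of the list. The largest was that of the multicopper oxidase gene TRIREDRAFT_124079 described above (log2 8.86). TRIREDRAFT_82208, with the ketoacyl synthase domain of polyketide synthases, rose from 15.5, 15.7 and 17.6 to 425, 383 and 423 CPM (log2 4.65, SE 0.16). The P450 gene TRIREDRAFT_68705 rose from 2.79, 2.20 and 3.88 to 46.2, 48.3 and 47.5 CPM (log2 4.00, SE 0.21).

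Genes against oxidative damage gave 6 rises (24%) and 10 falls (40%) among 25 tested, 4 and 13 when scaled by totals. The glutathione transferase gene TRIREDRAFT_41895 had 241, 207 and 209 CPM in the parent and 42.4, 35.9 and 24.3 in Δvps21 (log2 -2.67, SE 0.19). The manganese superoxide dismutase gene TRIREDRAFT_66345 fell from 107, 82.5 and 111 to 28.2, 31.96 and 30.2 CPM (log2 -1.74, SE 0.16). A catalase gene, TRIREDRAFT_67538, rose from 6.91, 8.75 and 7.93 to 29.1, 44.0 and 30.7 CPM (log2 2.14, SE 0.20). Of 16 tested genes for iron and copper uptake, 5 rose (31.3%) and 8 fell (50%), 4 and 10 when scaled by totals. The ferric reductase genes TRIREDRAFT_111750 and TRIREDRAFT_23353, whose family makes iron available for uptake, fell by 2.17 (SE 0.17) and 2.20 (SE 0.21) on the log2 scale. Over the 10 tested genes with a ferric reductase domain, log2 fold changes ran from -2.20 to 4.49, so the largest change was a rise. The ferric reductase gene TRIREDRAFT_110666, the most abundant of that family here at 241 FPKM in the parent, rose by 1.07 (SE 0.15), a call lost with all 9 libraries in 1 fit (adjusted p = 0.0871).

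Surface proteins changed in both directions. Of 21 tested genes for hydrophobins, conidiation and cell wall proteins, 11 rose (52.4%) and 6 fell (28.6%), with a median log2 fold change of 0.43, and with all 9 libraries in 1 fit 4 rose. Their summed level went from 8082 to 22885 FPKM, with hfb2, hfb3 and TRIREDRAFT_106538 among the members that rose. The hydrophobin gene hfb2, among the 10 most abundant genes, had 3552, 2770.2 and 2794 CPM in the parent and 6497, 9813 and 7638 in Δvps21 (log2 1.39, SE 0.19). The gene hfb3 rose from 1067, 984 and 1049.8 to 1953, 3092 and 2462 CPM (log2 1.28, SE 0.18). Neither hfb2 nor hfb3 was called with all 9 libraries in 1 fit (adjusted p = 0.0632 and 0.0682). The class II hydrophobin TRIREDRAFT_106538 described above, at 19.6 FPKM in the parent, came to 3039.7 FPKM in Δvps21, near the level of hfb3 (3449 FPKM). A cell wall protein gene, TRIREDRAFT_104277, fell from 89.7, 67.2 and 88.9 to 21.9, 23.7 and 19.4 CPM (log2 -1.92, SE 0.17). In bulk RNA of mycelium, a change in the share of a cell type such as conidia and a change in RNA per cell cannot be told apart.

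The balance of rises and falls among regulators and signalling genes depended on the scaling. Of 272 tested transcription factors, 70 rose (25.7%) and 75 fell (27.6%), 44 and 93 when scaled by totals. Of 158 tested kinases, phosphatases and G proteins, 42 rose (26.6%) and 38 fell (24.1%), 27 and 50 when scaled by totals. The bZIP factor gene TRIREDRAFT_65290 rose from 814, 892 and 1004 to 1825, 1909 and 2563 CPM (log2 1.22, SE 0.18). TRIREDRAFT_73654, another bZIP gene, fell from 97.99, 177 and 140.3 to 25.7, 22.8 and 23.7 CPM (log2 -2.52, SE 0.20). The gene snf1, for the kinase that in yeast answers low glucose, had 1503, 1616 and 1401 CPM in the parent and 651, 753 and 627 in Δvps21 (log2 -1.15, SE 0.16). The kinase gene TRIREDRAFT_64125 went from 6 reads over the parent libraries to 1249 over the Δvps21 libraries, a ratio of 239 (95% interval 110 to 653). A regulator of G protein signalling, TRIREDRAFT_72259, rose from 257, 296 and 331 to 812, 991 and 969 CPM (log2 1.65, SE 0.16). Of 34 mating and receptor genes 11 rose (32.4%) and 13 fell (38.2%), 7 and 13 when scaled by totals, with the PTH11-type receptor gene TRIREDRAFT_124113 rising by 1.15 (SE 0.14) and the receptor gene TRIREDRAFT_55561 falling by 2.05 (SE 0.21). Of 11 light response genes, 1 rose (9.09%) and 3 fell (27.3%), with log2 fold changes from -4.22 to 1.59. Of the 3 falls 1 was at least 2-fold, and with all 9 libraries in 1 fit 1 gene fell. The rise was that of the photolyase gene phr1, from 10.6, 11.6 and 19.8 to 49.8, 36.3 and 40.0 CPM (log2 1.59, SE 0.22).

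Of 91 tested genes for the cell cycle, DNA replication and the cytoskeleton, 27 rose (29.7%) and 15 fell (16.5%), and under scaling by totals 15 rose and 22 fell. A kinesin gene, TRIREDRAFT_66486, of the microtubule motors, had 1081, 1260.4 and 1139 CPM in the parent and 247, 278 and 258 in Δvps21 (log2 -2.15, SE 0.15). An alpha-tubulin gene, TRIREDRAFT_120830, rose from 106, 108 and 124 to 453, 513 and 706 CPM (log2 2.31, SE 0.18). The dynactin p25 gene TRIREDRAFT_112283, whose product links dynein to early endosomes in filamentous fungi, fell from 27.7, 36.2 and 23.8 to 12.1, 11.3 and 7.66 CPM (log2 -1.49, SE 0.21). The histone genes hh3, hh2a and hh4.1, the members of the list with the highest FPKM in the parent, rose, with hh3 at 924, 1020.4 and 1289 CPM in the parent and 2179, 2729 and 2919 in Δvps21 (log2 1.28, SE 0.18) and hh2a and hh4.1 up by 1.29 (SE 0.16) and 1.34 (SE 0.17). Since poly-A RNA was selected, histone values depend on how far those transcripts carry a tail. Among 169 ABC and other transporters of the major facilitator class, 53 rose (31.4%) and 42 fell (24.9%), 43 and 52 when scaled by totals, from TRIREDRAFT_104816 at 0.199, 0.735 and 1.03 CPM in the parent and 47.1, 49.4 and 56.1 in Δvps21 (log2 6.30, SE 0.30) to TRIREDRAFT_67026 (log2 -3.28, SE 0.21).

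**Figure D4:**
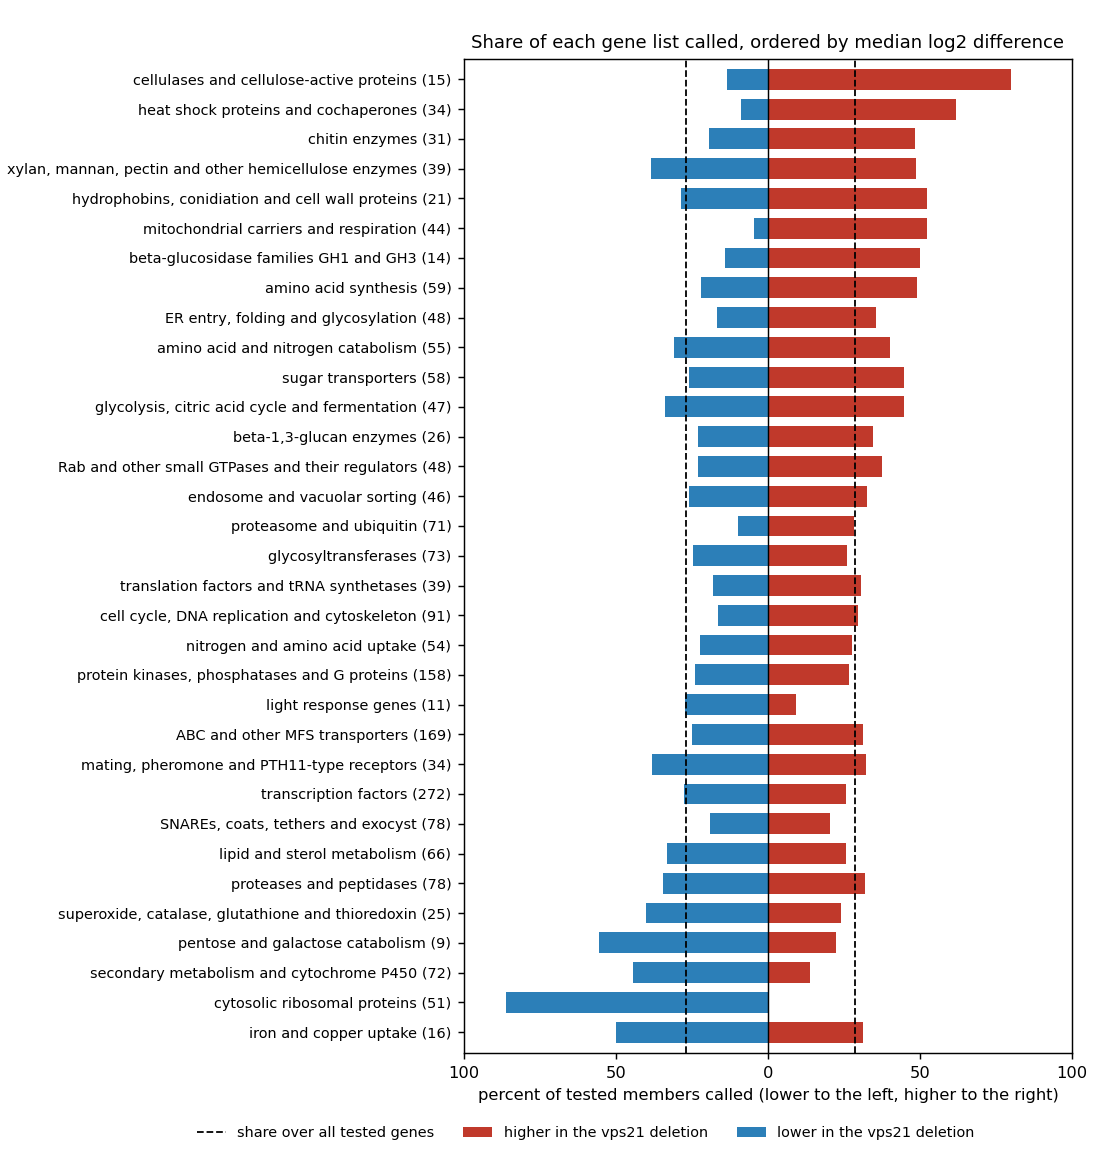
Bars give the percent of tested members called higher (to the right) and lower (to the left) in the vps21 deletion for 33 gene lists, with the number tested in brackets, ordered by median log2 fold change; dashed lines mark the shares over all 8825 tested genes, 28.5% and 26.9%. Cellulases stand at 80% higher and ribosomal proteins at 86.3% lower, while lists such as endosome and vacuolar sorting lie near the dashed lines on both sides.

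The domain names of the deposited table were also read 1 by 1, over the 77 domains with 8 or more tested genes. The domains described here, and the genes named for them, were picked for their values and outside the rule for named genes. The lowest median belonged to the NACHT domain, a nucleoside triphosphatase fold that in fungi occurs in proteins of self and non-self recognition. Of its 19 tested genes, 15 fell (78.9% against 26.9% of all genes) and none rose, with a median log2 fold change of -1.82. TRIREDRAFT_62121 had 16.6, 20.6 and 18.4 CPM in the parent and 1.82, 2.49 and 2.88 in Δvps21 (log2 -2.95, SE 0.23), and TRIREDRAFT_105330 fell from 7.17, 7.64 and 7.06 to 0.605, 1.03 and 0.631 CPM (log2 -3.26, SE 0.32). These genes were low in both strains, and the 19 together had 44.2 FPKM in the parent. The DEAD-box helicase domain is that of enzymes that remodel RNA in splicing and ribosome assembly. It had 21 rises (72.4% against 28.5% of all genes) and 3 falls (10.3%) among 29 genes, with a median of 0.88. Cytochrome P450 domains gave 25 falls (52.1%) and 5 rises (10.4%) among 48 genes. Short-chain dehydrogenases gave 24 falls (42.9%) and 8 rises (14.3%) among 56.

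Neighbouring genes often shared a direction. Along the scaffolds there were 86 stretches of at least 4 adjacent tested genes all called higher, holding 409 genes, and 102 stretches all called lower, holding 475. With 55.4% of all genes called, such stretches also arise where neighbours are independent, and no test was made. The longest had 10 genes called higher, at NW_006711157.1 from 281686 to 317704, with a median log2 fold change of 1.05 and a family 76 hydrolase gene, TRIREDRAFT_27395, as its largest change (log2 2.73, SE 0.21). It rests in part on weak calls: TRIREDRAFT_107715 lost its call without parent replicate 2, parent replicate 3 or Δvps21 replicate 2, and under scaling by totals TRIREDRAFT_107715, TRIREDRAFT_48444 and TRIREDRAFT_27600 were not called. Members of the stretches below also lost calls when 1 library was left out. A stretch of 9 genes at NW_006711168.1 from 70002 to 114302 held inda1, the transporter gene TRIREDRAFT_80863 (log2 1.02, SE 0.16; adjusted p = 0.0524 with all 9 libraries in 1 fit) and a guanine nucleotide exchange factor gene, TRIREDRAFT_67275, which rose from 55.8, 62.6 and 48.4 to 177, 180.2 and 159.7 CPM (log2 1.63, SE 0.15). A stretch of 8 at NW_006711150.1 from 4486 to 27762 held the family 6 cellulase gene TRIREDRAFT_72567. The longest stretch of falls, 9 genes at NW_006711183.1 from 38135 to 67544, held the dynactin p25 gene TRIREDRAFT_112283, the MAP kinase gene tmk2 of the cell wall integrity pathway (log2 -0.76, SE 0.15) and TRIREDRAFT_82360, which fell from 454, 459.7 and 484 to 84.4, 96.6 and 72.8 CPM (log2 -2.46, SE 0.16).

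Set directly against Δvps13, Δvps21 differed in 612 of 8571 genes tested (7.14%). Pairs of Δvps13 libraries differed from each other by a chi-square per degree of freedom of 147 to 334 over genes, pairs of Δvps21 libraries by 28.6 to 56.2. The count of called genes ranged from 64 without Δvps21 replicate 2 to 1463 without Δvps13 replicate 3. Of the 2512 genes higher in Δvps21 than in the parent, 2511 were tested against Δvps13, and 321 were also called higher than in Δvps13 and 3 lower. Of the 2377 lower genes 2197 were tested, and 237 were also called lower than in Δvps13 and 2 higher. Both comparisons use the same Δvps21 libraries, so the shared direction is no separate evidence.

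The genes set side by side here were chosen after their values were seen. For cel7a the mean level was 5398 FPKM in the parent, 17948 in Δvps13 and 23631 in Δvps21, and for TRIREDRAFT_72567 it was 3267, 17372 and 22345 FPKM. The gene cip2 had 152 FPKM in the parent, 1016 in Δvps13 and 1056 in Δvps21. For these cellulose genes no difference between the deletion strains was called. The hexokinase gene TRIREDRAFT_79677 had 174 FPKM in the parent, 49.7 in Δvps13 and 795 in Δvps21, so the deletion strains lay on opposite sides of the parent (Δvps21 against Δvps13, log2 3.99, adjusted p = 0.00114 by edgeR). TRIREDRAFT_79671, of esterase family 9, had 370.4, 86.9 and 1476 FPKM in the same order. TRIREDRAFT_79677 and TRIREDRAFT_79671 lie in 1 stretch of 6 adjacent tested genes called higher than in the parent, at NW_006711161.1 from 706769 to 729984. They are therefore not examples from separate loci. The gene of a lactate and pyruvate transporter, TRIREDRAFT_121441, had 17.9 FPKM in the parent, 142 in Δvps13 and 1.89 in Δvps21 (log2 -6.23 against Δvps13, adjusted p = 0.000543 by edgeR). The gene lxr1 had 1028, 1328 and 189 FPKM, TRIREDRAFT_41895 had 273, 297 and 42.7 FPKM, and chi18-5 had 20.7, 14.9 and 210.2 FPKM, and for these 3 genes Δvps21 was called apart from Δvps13 as well (log2 -2.82, -2.80 and 3.81).

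**Figure D5:**
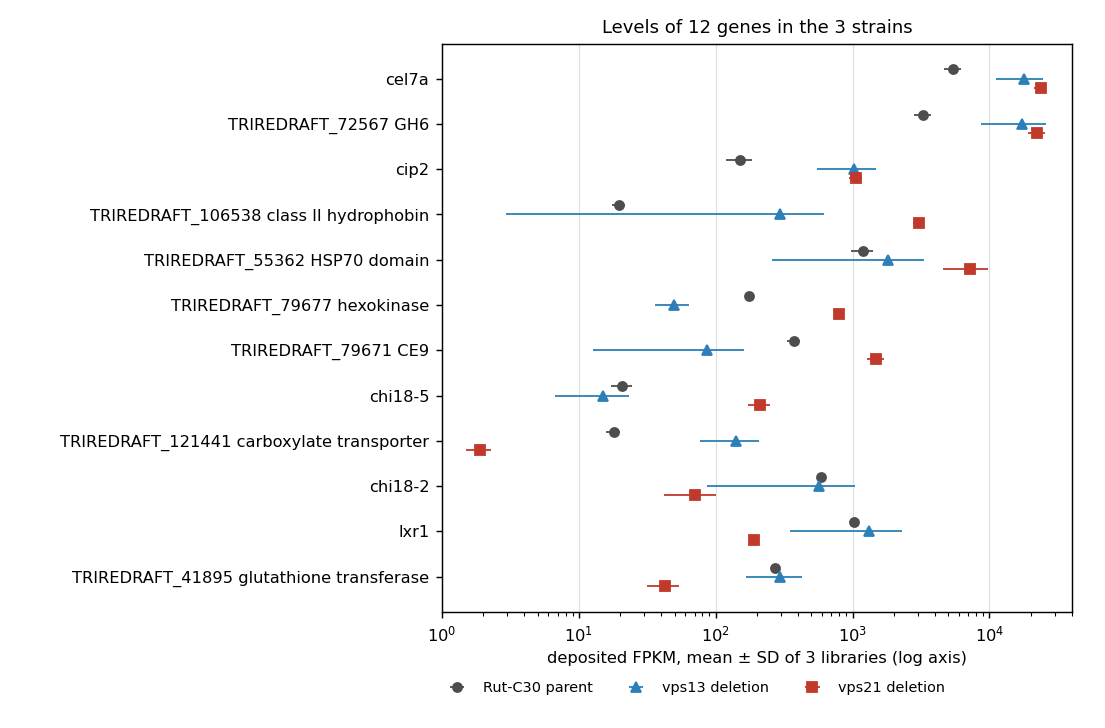
Points give the mean deposited FPKM of 3 libraries with its SD on a log axis for 12 genes in the parent, the vps13 deletion and the vps21 deletion. The cellulose genes cel7a, TRIREDRAFT_72567 and cip2 have both deletion strains above the parent, while for the hexokinase gene TRIREDRAFT_79677 and for TRIREDRAFT_121441 the deletion strains fall on opposite sides of it.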

How the data were processed

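Mycelial RNA had been selected by poly-T beads and sequenced, per the labels' protocols, which name no step that marks strand. HISAT2 2.0.5 and featureCounts 1.5.0-p3 are named in the submitters' processing notes; the genome build was not given there. The authors deposited whole-number counts of reads per gene and FPKM, which are those counts divided by gene length and a constant per library, so the FPKM are no second measurement. Gene names, descriptions, domains and coordinates are those of the deposited table. No sequence is shown, since genome sequence was not used here.

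Counts of the 6 libraries were fitted alone with edgeR 4.0.16 (R 4.3.3): filterByExpr with a minimum count of 10, TMM scaling, a quasi-likelihood test without further covariates (4 residual degrees of freedom), and Benjamini-Hochberg adjustment over 8825 genes. The standard error of a log2 fold change is its size divided by the root of the F statistic. The direct comparison with Δvps13 was fitted in the same way on its own 6 libraries. Alternatives used other scalings, filters, DESeq2 1.42.0, limma 3.58.1, all 9 libraries, a replicate block and each library left out. The script was tested on simulated data.

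The comparison, the 33 gene lists and the rule for named genes were chosen with earlier results of these data known. Lists use names, descriptions and, added once the table had been seen, its domain column; planned lists for autophagy and organic acid transporters matched too few genes and were not made. The rule named 268 genes: the 12 largest rises and falls of described genes with non-overlapping strains and at least 10 CPM, the 3 largest of any gene, in each list the 4 called members of smallest p and the 3 most abundant, the 10 most abundant genes, known regulators and the members of the 4 longest stretches. Genes named outside it are marked as such, and 1 gene that the rule takes is not reported here. Gene models without an NCBI identifier are in the tests and counts but not described. Ratios of read sums carry a 95% interval, and a group without reads was set to a floor of 3 reads.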

Additional observations from a re-analysis of the deposited data

How the results depend on the processing

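The 4889 calls (2512 higher, 2377 lower) stayed within 1.5 times under median-ratio size factors (4895), library totals (4801), DESeq2 (4851), limma voom (4900), limma on log2(FPKM + 1) and log2(FPKM + 0.1) (4694 and 4656), no filter (5028) and a filter of 10 CPM (3637). Asking for an absolute log2 of at least 1 left 2483 (1249 higher, 1234 lower), testing against that size left 1291 (680 and 611), and 1 fit of all 9 libraries gave 2897 (1489 and 1408), which estimates 1 spread with the Δvps13 libraries included. Leaving out 1 library gave 4158 to 5062 calls (2101 to 2597 higher, 1990 to 2465 lower). Against Δvps13 the 612 calls ran from 64 to 1463 with 1 library left out, were 64, 76 and 171 without Δvps21 replicates 2, 3 and 1, 380, 916 and 1463 without Δvps13 replicates 2, 1 and 3, and 1356 with all 9 libraries in 1 fit; the cause was not tested. Deviations of same-numbered libraries had correlations of 0.0328, -0.0442 and 0.102, and those of other pairs ran from -0.107 to 0.0756. With 3 libraries per strain the deviations within a strain depend on each other, so these values cannot decide whether the numbers pair the libraries. A replicate block gave 4810 calls (2468 higher, 2342 lower), and 742 against Δvps13. Of the 268 genes named by the rule, none reversed in any setting in which it was tested. Calls were lost for 95 when testing against a log2 of 1, 53 when asking for that size, 49 with all 9 libraries in 1 fit, 11 under totals, 6 to 20 with 1 library left out, and 4 or fewer under each other setting. At this depth genes under about 10 reads a library were mostly not tested.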
